A study of Mus musculus with 8 samples.

Results

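The genes described here are 8 that act at or mark the mature end of the intestinal villus. Ada, Nt5e, Slc28a2, Pnp and Xdh belong to the uptake and breakdown of purine nucleosides, Enpp3 encodes a cell-surface nucleotide phosphodiesterase, and Krt20 and Alpi are markers of mature enterocytes. They were taken by name from a gene count table, after its Ensembl identifiers had been matched to mouse symbols in GENCODE M21, and each had a single entry, 8 of the 54532 genes of the table. All 8 had enough counts to be tested, among 9855 tested genes.

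The libraries came from intestinal epithelial cells of lactating mice on day 5 of lactation, 4 of them WT and 4 Rank-knockout, with 1 library per mouse. Rank, also named Tnfrsf11a, encodes the receptor for RANKL. Rank-knockout mice carried a floxed Rank gene and Cre recombinase driven by the Villin promoter, which is active throughout the intestinal epithelium, so that the deletion was restricted to that tissue and the WT mice kept Rank. All animals were lactating females on a C57BL/6J background. The mice were described as age-matched littermates with 1 age range for the whole study, and the age of these dams, the stretch of intestine taken and whether the WT mice carried Cre were not given in the sources used here. The comparison asks how the epithelium of lactating mice differs without Rank.

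Extracellular nucleotides that reach the villus are dephosphorylated at the brush border, by enzymes such as Enpp3, Alpi and Nt5e, to nucleosides. Slc28a2 carries purine nucleosides into the enterocyte with sodium, Ada turns adenosine into inosine, Pnp splits inosine and guanosine into base and sugar phosphate, and Xdh oxidises hypoxanthine and xanthine to urate. In the mouse small intestine several of these genes, with Krt20, are most strongly expressed as enterocytes approach the tip, where cells are shed. Bulk libraries carry no position, so placement along the villus is background here and was not measured.

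In the Rank-knockout libraries all 8 genes had lower means than in WT, 6 passed the test and 0 were higher. Ada, Nt5e, Xdh, Enpp3, Krt20 and Alpi fell, with Rank-knockout levels between 31.6% and 64.3% of WT. Slc28a2 and Pnp did not pass, and in each the WT library of replicate 2 lay far below the other WT libraries. Without that library all 8 genes passed in the lower direction, beside 15.8% of all tested genes. It was the lowest WT library in 7 of the 8 genes, so leaving it out raised their WT means. With any other single library left out, 5 or 6 of the 8 passed. The median log2 fold change of the 8 genes was -1.29, beside 0.02 over all tested genes. For comparison, 14.6% of all tested genes were lower and 15.8% higher, 30.4% in all, by the same rule, an adjusted p under 0.05 in edgeR's quasi-likelihood test with Benjamini-Hochberg adjustment over all tested genes. With no adjustment 0 of the 8 genes had an edgeR p under 0.05 in the higher direction, and DESeq2 and limma-voom also called 0 higher. The share of all tested genes under that unadjusted rule was not counted.

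The promoters of the 3 genes with the smallest adjusted p are shown, since their differences stood out most from the spread between libraries. They are RefSeq entries on GRCm38.p6, each 250 bases before and 50 after the start site, given 5′ to 3′ along the gene, and 7 of the 8 genes had an entry. The RefSeq start of Enpp3 lies inside the GENCODE span of the gene. Capitals mark matches on either strand to CAAAGTCC, a half-site form for nuclear receptors such as HNF4, and to TATAAA, the TATA element.
Enpp3, chr10:24836146-24836445, minus strand: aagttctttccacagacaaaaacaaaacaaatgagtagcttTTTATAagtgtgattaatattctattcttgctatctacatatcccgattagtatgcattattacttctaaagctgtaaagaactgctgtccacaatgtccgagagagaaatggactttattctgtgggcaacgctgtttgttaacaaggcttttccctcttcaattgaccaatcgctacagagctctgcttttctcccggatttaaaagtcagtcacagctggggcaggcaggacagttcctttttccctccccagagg
Krt20, chr11:99438104-99438403, minus strand: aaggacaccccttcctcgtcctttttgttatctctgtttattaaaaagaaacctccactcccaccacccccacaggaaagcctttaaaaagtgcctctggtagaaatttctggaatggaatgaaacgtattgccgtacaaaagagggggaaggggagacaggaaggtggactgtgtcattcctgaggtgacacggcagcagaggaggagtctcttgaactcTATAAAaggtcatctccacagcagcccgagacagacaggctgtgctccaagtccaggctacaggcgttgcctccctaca
Alpi, chr1:87101557-87101856, minus strand: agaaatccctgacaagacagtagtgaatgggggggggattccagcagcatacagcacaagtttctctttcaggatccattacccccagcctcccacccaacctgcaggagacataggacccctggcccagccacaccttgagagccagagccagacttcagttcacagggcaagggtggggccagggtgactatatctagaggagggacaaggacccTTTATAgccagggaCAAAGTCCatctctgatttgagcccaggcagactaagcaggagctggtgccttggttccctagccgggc

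The TATAAA letters began at position -29 in Krt20, counted from the start site, and in Alpi the match on the opposite strand began at -33. In Enpp3 the match, also on the opposite strand, began at -209. Among 32544 promoters of the same length, 13.6% held TATAAA. The letters CAAAGTCC, held by 1.43% of these promoters, were found in Alpi at -19 and in none of the other 6 promoters of the group. Searches for AGATAA, a form bound by factors of the endoderm GATA family, held by 11.2% of promoters, matched Krt20 and Slc28a2. Searches for CCACCC, a KLF form held by 31.6%, matched Krt20 and Alpi, at 2 places in the latter. The form TTTATNG, of the CDX type and held by 10.8%, matched Krt20, Alpi and Slc28a2, and in Krt20 and Alpi it overlapped the TATAAA letters. Ada, Nt5e and Pnp held none of these forms in the window, which says only that these letters were absent there.

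Levels are given as CPM, counts scaled to a common library total with trimmed mean of M values (TMM) factors. The kit reads close to the 3′ end, so that each transcript gives about 1 tag and CPM can be set side by side between genes without division by length. In WT the order by mean CPM was Xdh, Krt20, Alpi, Slc28a2, Ada, Enpp3, Nt5e and Pnp. The ranges of neighbours in that order overlapped except between Krt20 and Alpi and between Enpp3 and Nt5e. In Rank-knockout the order was Xdh, Krt20, Alpi, Ada, Slc28a2, Enpp3, Pnp and Nt5e. There the ranges of Krt20 and Alpi, of Alpi and Ada, and of Enpp3 and Pnp were apart. Xdh ranked 53rd by WT mean among the tested genes and Krt20 65th, so both are among the abundant messages of these cells, while Nt5e and Pnp rested on few counts.

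**Figure D1:**
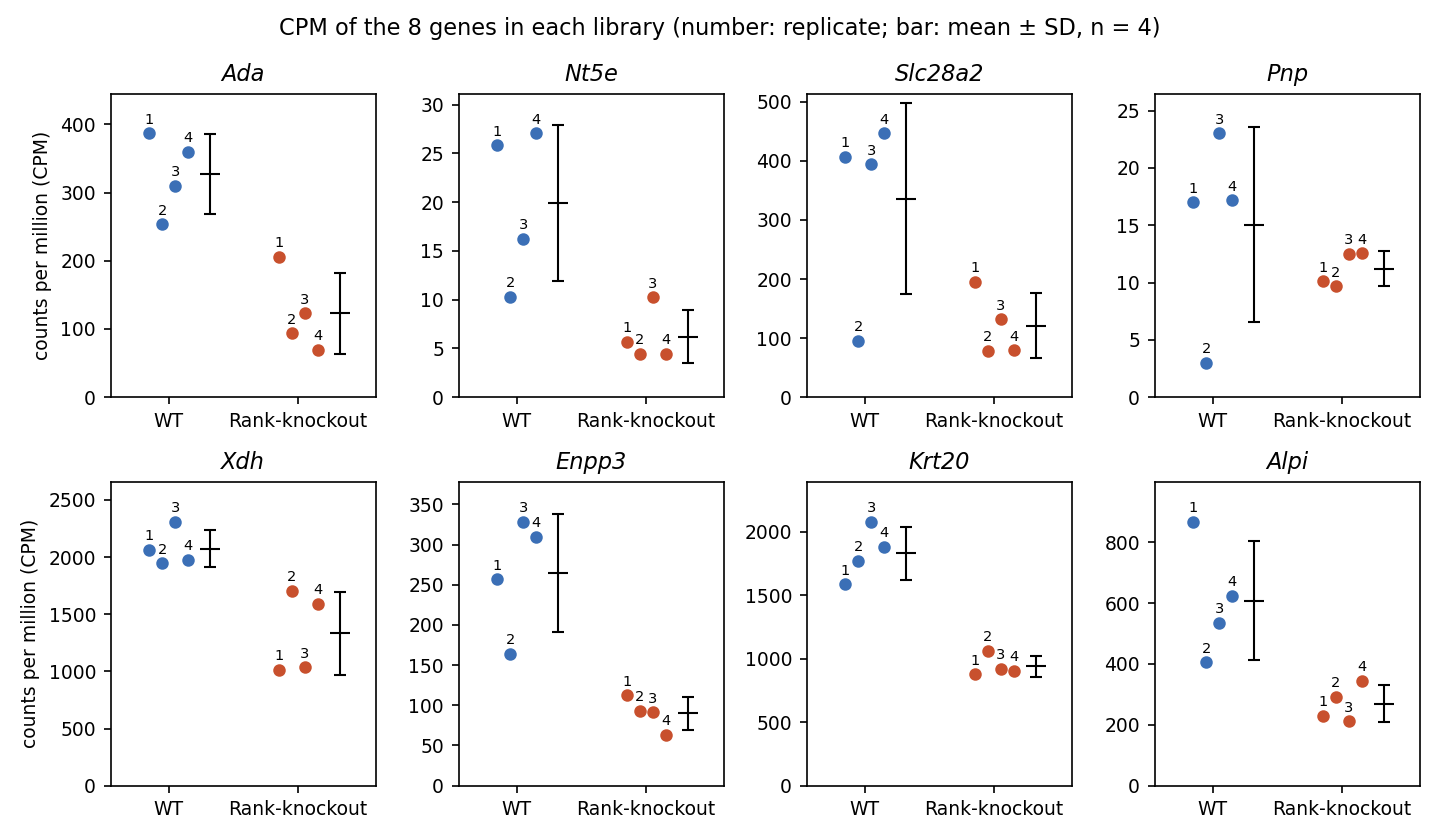
CPM of each of the 8 genes in the 4 WT (blue) and 4 Rank-knockout (orange) libraries on a linear axis from 0, with the replicate number above each point and the mean ± SD (n = 4) as a bar. Rank-knockout points lie below all WT points in 6 panels, and WT replicate 2 sits among or below the Rank-knockout points in the Slc28a2 and Pnp panels.

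Total counts ran from 1530781 to 4335653 per library. WT replicate 2 was the deepest WT library, against 1616024 for the next. It also stood apart in content: of 7960 genes with a mean of at least 10 CPM, 55 were more than 3 times below the lowest other WT library there, against 0 to 11 genes in every other library, and Slc28a2 and Pnp were among the 55. For the 8 genes and the gene lists, counts of calls without it are given where they differ. Tnfrsf11a itself was 60.2 ± 17.5 CPM across WT libraries and 37.7 ± 8.57 CPM across Rank-knockout libraries (SD, n = 4), and edgeR put the log2 fold change at -0.67 ± 0.22 (SE, adjusted p = 0.032). The libraries ran from 41.3 to 76.8 CPM in WT and from 27.0 to 46.8 CPM in Rank-knockout. A 3′ tag can lie outside the deleted exons, which the sources used here do not name, so these residual reads are no check of the deletion. The labelled cell type fitted its markers: the 8 pan epithelial genes, among them Epcam and Cdh1, summed to 8702 to 11637 CPM, and the 11 stromal, endothelial and muscle markers to 2.68 to 12.3 CPM. No 2 libraries of a genotype matched within sampling noise.

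Of the enzymes at the cell surface, Nt5e (ENSMUSG00000032420, chr9:88327197-88372092 on GRCm38, plus strand) encodes CD73, the ecto-5′-nucleotidase that makes adenosine from AMP. It was 25.8, 10.3, 16.3 and 27.1 CPM in WT replicates 1 to 4 and 5.69, 4.47, 10.3 and 4.45 in Rank-knockout replicates 1 to 4. The lowest WT library, replicate 2, and the highest Rank-knockout library, replicate 3, were almost level, so the groups were apart only narrowly. The means were 19.9 ± 7.996 and 6.21 ± 2.76 CPM (SD, n = 4), and edgeR put the log2 fold change at -1.66 ± 0.35 (SE, adjusted p = 0.0028). Only 144 WT and 79 Rank-knockout counts stood behind these values. In bulk libraries such as these, fewer cells of a type and less RNA per cell cannot be told apart, here or in any result that follows.

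Nt5e and Ada are also used by lymphocytes. The summed level of 10 T cell markers was 182 to 280 CPM in WT and 124 to 199 CPM in Rank-knockout, most of it Gzma, and 0 of the 6 T cell markers that could be tested passed in either direction with edgeR. Gzma was at -0.45 (adjusted p = 0.072), and was lower without WT replicate 2, at -0.54 (0.026), and after thinning to the shallowest library, at -0.50 (0.031). Their part in the Nt5e and Ada values was not tested. Of the B and plasma cell markers, Igkc was lower, and Igha, at -1.49 (edgeR adjusted p = 0.066), did not pass but was lower after thinning and without WT replicate 3 or Rank-knockout replicate 2.

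Enpp3 (ENSMUSG00000019989, chr10:24772406-24842823, minus strand), which hydrolyses extracellular nucleotides to monophosphates, was 257, 164, 329 and 310 CPM in the WT libraries and 113, 93.1, 91.4 and 63.3 CPM in the Rank-knockout libraries. Every Rank-knockout library was below every WT library, and WT replicate 2 was again the lowest of its group. The means were 265 ± 73.8 and 90.1 ± 20.3 CPM (SD, n = 4), and edgeR put the log2 fold change at -1.55 ± 0.22 (SE, adjusted p = 0.00034).

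Alpi (ENSMUSG00000079440, chr1:87098002-87101606, minus strand), the intestinal alkaline phosphatase of the brush border, was 868, 406, 535 and 624 CPM in the WT libraries and 230, 292, 211 and 345 CPM in the Rank-knockout libraries. The groups did not overlap, and WT replicate 1 stood above the other WT libraries. The means were 608 ± 195 and 270 ± 61.4 CPM (SD, n = 4), and edgeR put the log2 fold change at -1.17 ± 0.22 (SE, adjusted p = 0.0016). Alpi was the only alkaline phosphatase with enough counts to test: the WT and Rank-knockout libraries held 15 and 5 counts of Akp3, 4 and 7 of Alppl2, and 2 and 3 of Alpl.

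Slc28a2 (ENSMUSG00000027219, chr2:122426477-122461137, plus strand), the sodium-coupled purine nucleoside carrier CNT2, was 407, 95.3, 394 and 447 CPM in the WT libraries and 195, 78.2, 132 and 79.2 CPM in the Rank-knockout libraries. WT replicates 1, 3 and 4 were each above all 4 Rank-knockout libraries, while WT replicate 2 lay within the Rank-knockout range. The means were 336 ± 162 and 121 ± 55.3 CPM (SD, n = 4), and the log2 fold change of -1.46 (SE 0.54) had an edgeR adjusted p of 0.083. Without WT replicate 2 it was -1.79 (SE 0.29, edgeR adjusted p = 0.0015), and with DESeq2 on all libraries -1.48 (adjusted p = 0.026), within a range of 0.0015 to 0.20 over all alternatives. Of the 50-base words in the last 400 bases of its transcripts, 43.4% also occur in Gm14085, a near copy that held 1 count in all, so the Slc28a2 count is uncertain.

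Ada (ENSMUSG00000017697, chr2:163726584-163750239, minus strand), adenosine deaminase, was 387, 253, 310 and 360 CPM in the WT libraries and 206, 93.8, 123 and 69.6 CPM in the Rank-knockout libraries. The groups did not overlap, and Rank-knockout replicate 1 was the closest to WT. The means were 328 ± 59.0 and 123 ± 59.4 CPM (SD, n = 4), and edgeR put the log2 fold change at -1.40 ± 0.29 (SE, adjusted p = 0.0054). Ada, Slc28a2 and Enpp3 shared this order in part, with Rank-knockout replicate 1 the highest of its group in each.

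Pnp (ENSMUSG00000115338, chr14:50931082-50965237, plus strand), purine nucleoside phosphorylase, gave no difference past the threshold. It was 17.0, 3.02, 23.0 and 17.2 CPM in the WT libraries and 10.1, 9.68, 12.5 and 12.6 CPM in the Rank-knockout libraries, from 97 and 150 counts. WT replicates 1, 3 and 4 were above every Rank-knockout library and WT replicate 2 was below all of them. The means were 15.1 ± 8.50 and 11.2 ± 1.53 CPM (SD, n = 4), and edgeR put the log2 fold change at -0.30 ± 0.46 (SE, adjusted p = 0.66). Without WT replicate 2 it was -0.78 (SE 0.25, adjusted p = 0.022), while it turned to 0.30 with limma-voom and to 0.02 without WT replicate 3, over a range of adjusted p from 0.022 to 0.98. The Pnp count is uncertain for another reason: the annotation places Pnp2, a paralog, inside the Pnp span on the same strand, and 28.5% of the 50-base words at the 3′ ends of Pnp transcripts occur in other genes, Pnp2 and Gm49342 among them. Pnp2 was the more abundant, 94.6 ± 31.0 CPM in the WT libraries and 74.7 ± 18.6 CPM in the Rank-knockout libraries (SD, n = 4), and did not pass either, with edgeR's log2 fold change at -0.34 ± 0.23 (SE, adjusted p = 0.29).

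Xdh (ENSMUSG00000024066, chr17:73883895-73950196, minus strand), xanthine dehydrogenase, which forms urate, was 2065, 1944, 2310 and 1978 CPM in the WT libraries and 1011, 1703, 1034 and 1589 CPM in the Rank-knockout libraries. The 4 WT libraries were close together, and the Rank-knockout libraries fell into a lower pair, replicates 1 and 3, and a higher pair, replicates 2 and 4. The means were 2074 ± 165 and 1334 ± 363 CPM (SD, n = 4), and edgeR put the log2 fold change at -0.64 ± 0.18 (SE, adjusted p = 0.015). It was the smallest difference of the 6 called genes and lost its call without Rank-knockout replicate 3, at -0.53 (adjusted p = 0.059), and with library totals in place of TMM, at -0.44 (adjusted p = 0.057), within a range of 0.0021 to 0.059 over all alternatives.

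Krt20 (ENSMUSG00000035775, chr11:99428403-99438150, minus strand), a keratin of mature enterocytes, was the steadiest of the 8 genes. It was 1584, 1772, 2079 and 1878 CPM in the WT libraries and 877, 1062, 919 and 903 CPM in the Rank-knockout libraries. The groups were widely apart, and Krt20 was the only one of the 8 genes in which WT replicate 2 was not the lowest WT library. The means were 1828 ± 206 and 940.2 ± 83.3 CPM (SD, n = 4), and edgeR put the log2 fold change at -0.96 ± 0.14 (SE, adjusted p = 0.00036).

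The groups did not overlap in 6 of the 8 genes, all with Rank-knockout lower, and among all tested genes 28.8% had groups apart, 14.3% in that direction. Without WT replicate 2 all 8 genes were called lower, beside 15.8% of all tested genes. The log2 fold change was then -1.52 in Ada, -1.94 in Nt5e, -1.74 in Enpp3, -1.33 in Alpi, -0.67 in Xdh and -0.98 in Krt20. Leaving out any other single library left 5 or 6 called, and the value of 5 came without Rank-knockout replicate 3, where Xdh was lost.

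**Figure D2:**
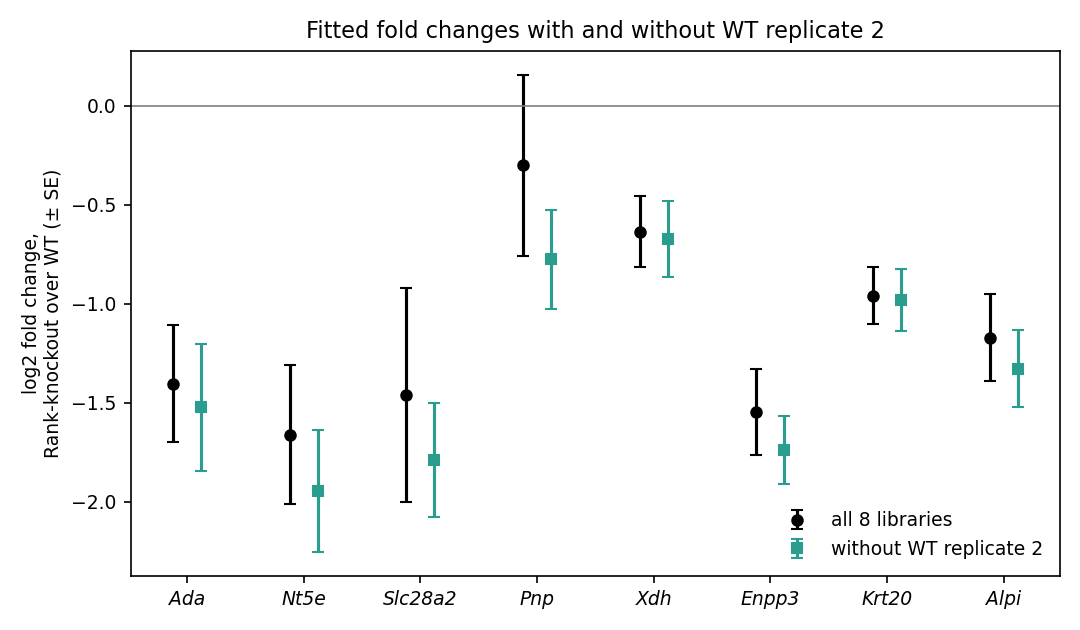
Fitted log2 fold change of each gene, Rank-knockout over WT, with its SE as a bar, from all 8 libraries (black circles) and without WT replicate 2 (green squares). Pnp moves from -0.30 to -0.78 and Slc28a2 from -1.46 to -1.79, both with shorter bars, while Krt20 and Xdh hardly move.

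The 8 genes differed in how much they varied between mice of the same genotype. The within-genotype SD of log2 CPM was 0.14 in Krt20, smaller than in all but 12.2% of 6108 genes with a mean of at least 20 CPM. It was 0.29 in Xdh, 0.40 in Alpi, 0.40 in Enpp3, 0.50 in Ada and 0.57 in Nt5e. It was 0.87 in both Slc28a2 and Pnp, larger than in 99.4% of those genes. Pnp and Nt5e were also the 2 genes with the fewest counts.

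Likeness of pattern was measured as the root mean square difference of log2 CPM, each gene centred on its own mean, over the 8 libraries. Among the 8 genes the closest pairs were Xdh with Krt20, at 0.26, and Ada with Enpp3, at 0.31, and the farthest was Ada with Pnp, at 1.04. Among 6102 other genes with a mean of at least 20 CPM, Krt20 was nearest to Serpinb1a, at 0.08, followed by 1810055G02Rik and Igsf23, at 0.09 each. Xdh was nearest to Arhgap26, at 0.08, then Saraf and H2-K1. Alpi was nearest to Tsku, at 0.15, then Crim1 and Abhd2, and Ada to 4930539E08Rik, at 0.23, then Muc3 and Slc23a4. Clca4a and Selenop were among the 3 nearest to both Nt5e and Enpp3, with Bst1 as the other for Nt5e and Pmp22, at 0.18, as the nearest to Enpp3. For Slc28a2 the nearest gene, 2010109I03Rik, was at 0.35, followed by Clca4b and Unc5b. The neighbours of Pnp were Sptssa at 0.21, Snx3 and Map2k1. These 3 and Muc3 did not pass the test themselves. With all 8 libraries the other neighbours named were lower, though Clca4b (adjusted p = 0.032) lost its call with library totals, limma-voom and 6 of the 8 libraries left out in turn. A gene close by this measure shares both the genotype difference and the deviations of single libraries, including those of WT replicate 2.

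Setting each gene against other transcripts of its own library removes the library scaling. The first reference was the summed CPM of the 8 pan epithelial genes, which itself differed by -0.20 on the log2 scale between genotypes, with Epcam, Cdh17 and Vil1 lower, Krt18 higher and the other 4 not past the threshold. Over the alternatives 1 to 3 of the 8 were lower and 0 to 2 higher. Relative to it Enpp3 was lower by a log2 difference of -1.33, Alpi by -0.95, Krt20 by -0.76 and Xdh by -0.48, each with an exact two-sided permutation p of 0.029, the smallest that 4 against 4 libraries allow. Ada, at -1.31, and Nt5e, at -1.35, had an exact p of 0.057 each, Slc28a2 was at -1.15 with an exact p of 0.14, and Pnp was at 0.07 with an exact p of 1. These are 8 tests with p-values as they stand. Without WT replicate 2 Slc28a2 was at -1.68 and Pnp at -0.53, each with an exact p of 0.057. With 1 library left out, Xdh went to an exact p of 0.057 without any of the WT libraries, Alpi without any of the Rank-knockout libraries and Enpp3 without Rank-knockout replicate 2, 3 or 4, Ada reached 0.029 without Rank-knockout replicate 1, and Krt20 stayed at 0.029 throughout.

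The second reference was 12 genes of the middle villus, absorptive genes such as Slc5a1, Lct and Fabp2. Their summed CPM fell by 0.94 on the log2 scale from WT to Rank-knockout. Relative to them Krt20 differed by -0.02, Alpi by -0.21, Slc28a2 by -0.41, Ada by -0.57, Enpp3 by -0.59 and Nt5e by -0.61. Xdh turned to 0.26 and Pnp to 0.81. None of the 8 passed, and the smallest exact permutation p was 0.086, for Enpp3. Relative to Vil1 alone, the gene of the brush border protein villin, whose promoter also drove the Cre, Enpp3 differed by -0.73 and Xdh by 0.13, and none of the 8 passed either.

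**Figure D3:**
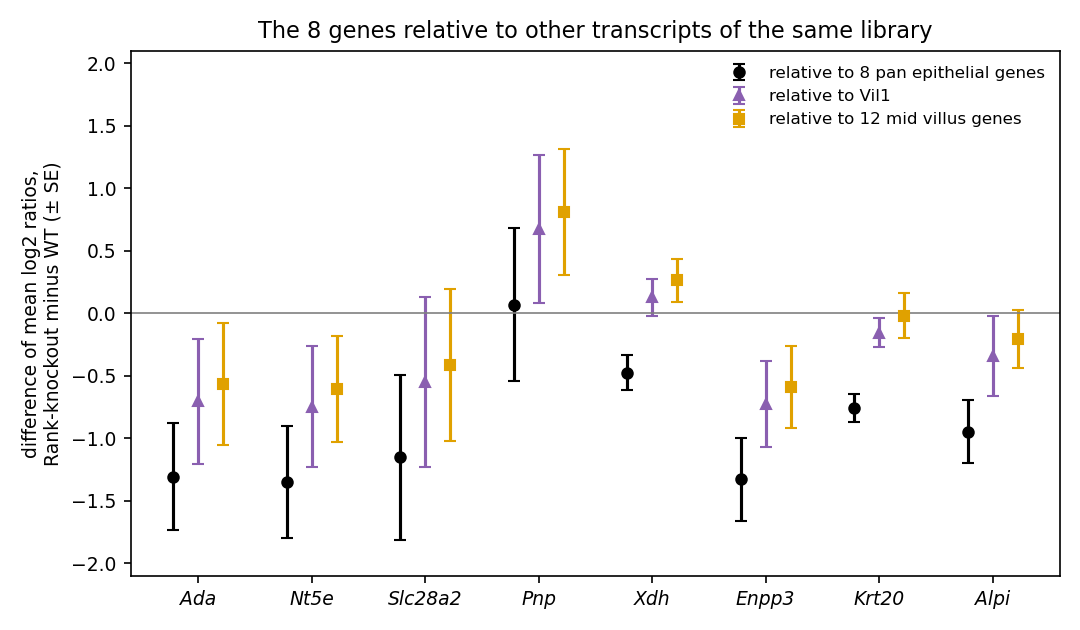
Difference between the genotype means of the log2 ratio of each gene to a reference in the same library, Rank-knockout minus WT, with bars of 1 SE from the SDs of 4 libraries each. Against the pan epithelial genes (black) 7 genes lie below 0, and against Vil1 (purple) and the mid villus genes (yellow) all 8 values are higher, with Krt20 near 0 and Xdh above it.

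Other genes of the purine pathway were followed through lists by role, each gene in the same edgeR fit. The first list held nucleotide-hydrolysing enzymes, their relatives and the peptidase Dpp4. Of its 13 genes 9 were tested, 4 were lower and 0 higher, with a median log2 fold change of -0.49. No test was run over a whole list. The shares of 14.6% lower and 15.8% higher among all tested genes are the background for list counts from the main fit. With library totals 2566 of the 9855 tested genes were higher and 859 lower, the background for list counts under that setting. Entpd8, a nucleoside triphosphate hydrolase of the cell surface, fell from 282 ± 26.7 to 166 ± 19.0 CPM (SD, n = 4), and edgeR put the log2 fold change at -0.77 (adjusted p = 0.00097). Entpd5 and Entpd7, relatives that work inside the secretory pathway, fell as well, Entpd5 from 371 ± 12.6 to 186 ± 56.9 CPM and Entpd7 from 175 ± 18.7 to 93.6 ± 10.8 CPM (SD, n = 4). Dpp4, a brush border peptidase that was placed in the same list, went from 383 ± 134 to 183 ± 28.0 CPM (SD, n = 4). It is 1 of the 4 lower genes, with edgeR's log2 fold change at -1.06 (adjusted p = 0.0033). Entpd2, Enpp1, Enpp4, Enpp5 and Entpd6 did not pass, and Entpd1, which encodes CD39, was read 3 times in the WT libraries and 2 times in the Rank-knockout libraries.

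Among nucleoside transporters 4 of 7 were tested. Slc28a1, the sodium-coupled carrier that prefers pyrimidine nucleosides, was 131, 93.5, 112 and 163 CPM in the WT libraries and 21.5, 47.3, 42.4 and 53.6 CPM in the Rank-knockout libraries. Its groups were well apart, with edgeR's log2 fold change at -1.60 ± 0.25 (SE, adjusted p = 0.00073). Slc29a1, an equilibrative carrier, moved the other way, from 8.85 ± 0.76 to 18.5 ± 7.68 CPM (SD, n = 4), and edgeR put the log2 fold change at 1.08 (adjusted p = 0.013). Without Rank-knockout replicate 1 its fold change was 0.78 with an edgeR adjusted p of 0.061, and no other alternative ended the call. Slc28a3 and Slc29a3 did not pass.

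Of the enzymes that work beside Ada, Pnp and Xdh inside the cell, 12 of 19 were tested, 1 was lower and 3 were higher, with a median of 0.36, or 0.14 without WT replicate 2. The lower gene was Gda, guanine deaminase, which makes xanthine from guanine and was more abundant than Xdh. It was 3689, 3839, 5337 and 4396 CPM in the WT libraries and 2186, 2545, 1816 and 2383 CPM in the Rank-knockout libraries. Its groups did not overlap, and edgeR put the log2 fold change at -0.95 ± 0.17 (SE, adjusted p = 0.00081). The higher genes were Itpa, which clears inosine triphosphate, at 0.67 (edgeR adjusted p = 0.0037), and the cytosolic nucleotidases Nt5c3, at 0.63 (0.0059), and Nt5c3b, at 0.81 (0.032). The call of Nt5c3b ended when any 1 of 6 libraries was left out, with limma-voom and after thinning, and with library totals 5 genes of the list were higher. Uox, whose product breaks down urate, was counted 1 time in each genotype.

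All 3 urate carriers tested were lower, at a median of -1.14, while Abcc4 had too few counts. Slc2a9 was 105, 71.1, 84.7 and 149 CPM in the WT libraries and 33.7, 45.0, 46.4 and 52.6 CPM in the Rank-knockout libraries, with edgeR's log2 fold change at -1.20 ± 0.22 (SE, adjusted p = 0.0011). Slc17a4 fell by 1.14 and Abcg2, the ATP-driven exporter, by 0.70 on the log2 scale, with edgeR adjusted p of 0.0029 and 0.0055. None of the 3 had overlapping groups.

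Xdh needs a sulfurated molybdenum cofactor. Of the 5 genes of its synthesis Mocs2 was lower, at -0.76 (edgeR adjusted p = 0.013), and Mocos, the sulfurase, was lower at -0.64 (0.019), and Gphn, Mocs1 and Mocs3 did not pass, although Gphn was higher with library totals, at 0.64 (0.049). Mocos lost its call with library totals, at -0.44, without the 50 most abundant genes in the totals, at -0.51, and when WT replicate 3 or Rank-knockout replicate 2 or 3 was left out. Of the adenosine receptors, Adora2b, the main epithelial form, was 24.5, 21.9, 35.9 and 35.0 CPM in the WT libraries and 8.42, 12.7, 10.3 and 13.3 CPM in the Rank-knockout libraries. It was lower by the test, at -1.37 (SE 0.24, edgeR adjusted p = 0.000765), with the groups apart, and Adora2a did not pass.

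The routes that rebuild purines were followed in the same way. Of 7 salvage genes Mtap was higher, a call that ended without WT replicate 3, WT replicate 4 or Rank-knockout replicate 1, and the other 6, Hprt, Aprt and Adk among them, did not pass, with a median of 0.40. With library totals in place of TMM 5 of the 7 were higher. Of 10 tested genes of de novo synthesis 6 were higher and 0 lower, with a median of 0.87. Atic, which makes the last steps to IMP, was 76.1, 80.9, 75.2 and 52.2 CPM in the WT libraries and 222, 164, 188 and 137 CPM in the Rank-knockout libraries. Every Rank-knockout library was above every WT library, with edgeR's log2 fold change at 1.31 ± 0.18 (SE, adjusted p = 0.00020). Gart was higher at 1.24, Gmps at 1.02, Adsl at 0.88, Pfas at 0.86 and Prps2 at 0.83, and the calls of Adsl, Pfas and Prps2 were each lost without some single libraries, and that of Pfas also after thinning. Without WT replicate 4, 3 of the 6 were higher. Adss, at -0.40 (edgeR adjusted p = 0.083), was lower without WT replicate 2, at -0.54 (0.013). No test compared these routes with the 8 genes.

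Krt20 was set beside the other epithelial keratins. Krt7 was 27.9, 29.7, 24.4 and 25.1 CPM in the WT libraries and 52.0, 45.4, 66.5 and 50.5 CPM in the Rank-knockout libraries, with edgeR's log2 fold change at 0.98 ± 0.18 (SE, adjusted p = 0.00095). Krt19 was higher at 0.65 (edgeR adjusted p = 0.0089) and Krt18 at 0.41 (0.046), a call that ended with DESeq2 and limma-voom, among other alternatives. Krt8, at -0.29, did not pass.

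Along the villus, 11 of 14 tested tip genes and regulators were lower and 0 higher, with a median of -1.07. Klf4, a transcription factor of differentiated epithelium, fell from 1571 ± 220 to 680.6 ± 84.7 CPM (SD, n = 4), and edgeR put the log2 fold change at -1.21 (adjusted p = 0.00015). Apoa4, an apolipoprotein of fat absorption, fell by 1.16 and Creb3l3, a membrane-bound transcription factor, by 1.06 on the log2 scale. Egfr and Gkn3 did not pass. Junb, at -0.60 (edgeR adjusted p = 0.053), did not pass but was lower with DESeq2, with no filter on low counts and without WT replicate 1, WT replicate 2 or Rank-knockout replicate 4. Of 12 mid villus genes 11 were lower, or 7 with library totals in place of TMM, with a median of -0.86, of 9 lower villus genes 2 were lower, with a median of -0.30, and of 10 crypt genes, markers of stem cells and division, 8 were higher and 0 lower, with a median of 1.13. Without WT replicate 2 the lower calls were 12 among tip genes, 12 among mid villus genes and 2 among lower villus genes, and 9 crypt genes were higher. The median of the lower villus genes was -0.74 without Rank-knockout replicate 1, with 3 genes lower, -0.84 with limma-voom and -0.10 with library totals. Lypd8 was higher with limma-voom, with library totals, at 0.69 (adjusted p = 0.0086), without WT replicate 3 and under 2 other alternatives. The summed level of the list was 13822 CPM in Rank-knockout replicate 1 against 3210 to 4226 CPM in the other Rank-knockout libraries, most of it Reg3b and Reg3g. Whether the lists along the villus differed was not tested. Markers of secretory cells moved too: of 7 Paneth cell genes 4 were higher and 0 lower, with a median of 1.22, and of 8 goblet cell genes 2 were higher and 4 lower, with a median of -0.44. The Paneth cell count was 2 when any of replicates 1, 3 and 4 of WT was left out, 2 when replicate 1 or 3 of Rank-knockout was, 5 without WT replicate 2 and 7 without Rank-knockout replicate 4. With edgeR 0 of 8 enteroendocrine and 0 of 4 tested tuft cell genes passed in either direction, while Gcg was higher without WT replicate 2, at 1.02 (adjusted p = 0.029), Chgb was higher without Rank-knockout replicate 4, at 0.51 (0.013), and with library totals, and 1 tuft cell gene was lower without WT replicate 3. The part of these cells in the values of the 8 genes was not tested.

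**Figure D4:**
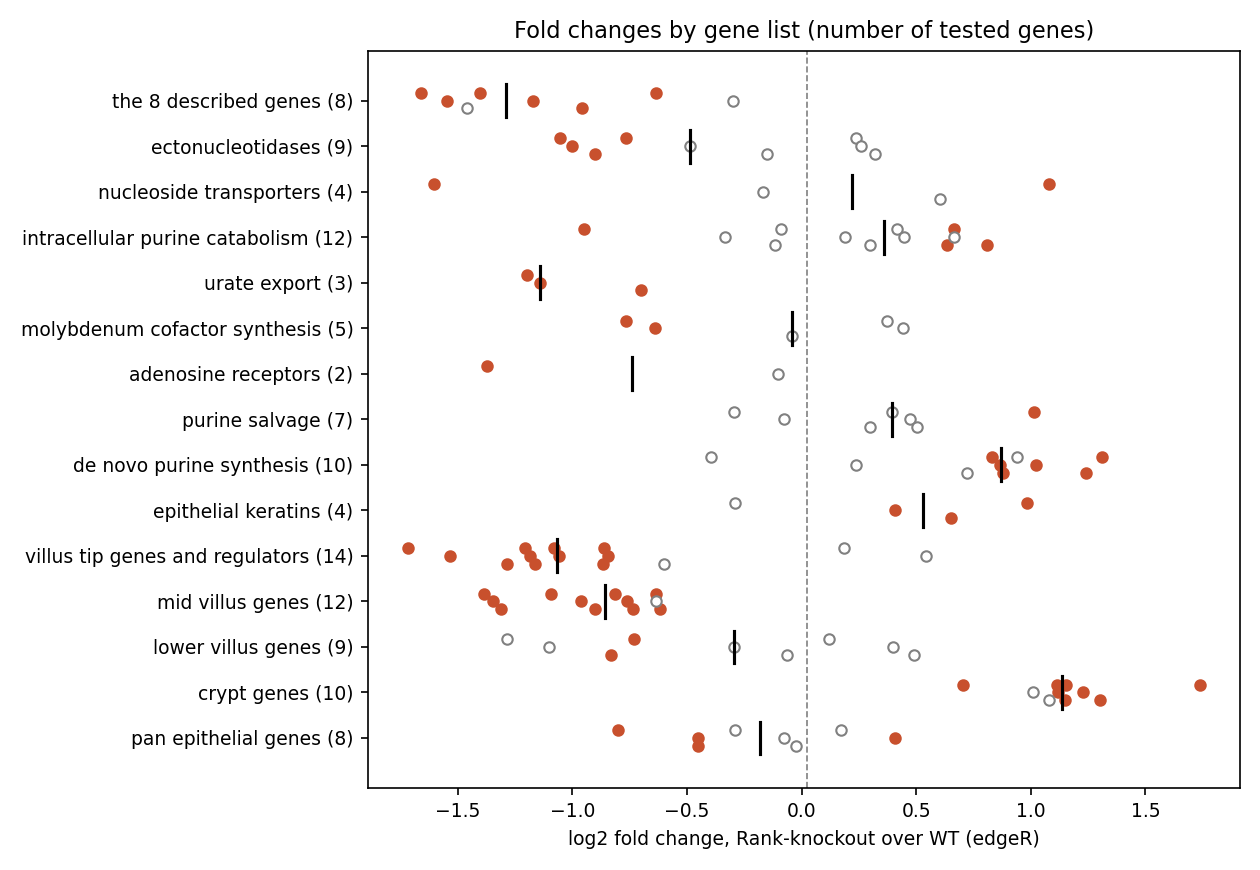
Log2 fold change of each tested gene, Rank-knockout over WT, by list, with genes past the edgeR threshold filled, the others open, the list median as a black bar and the median of all tested genes, 0.02, as a dashed line. The urate carriers, tip genes and mid villus genes lie to the left like the 8 described genes, 6 of them filled, and de novo synthesis and crypt genes lie mostly to the right.

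Ada and Alpi are not expressed evenly along the gut, and the stretch taken was not given. Marker lists for the 2 ends were added after the values had been seen. The summed proximal markers were 4744 to 8200 CPM in WT, lowest in WT replicate 2, and 2868 to 5138 CPM in Rank-knockout, with 2 of 7 tested genes lower. The proximal count was 3 without WT replicate 2 or Rank-knockout replicate 4, with DESeq2 and with a replicate block. With no filter it was 4 of 8. The summed distal markers were 732 to 858 CPM in WT and 337 to 609.7 CPM in Rank-knockout, with 2 of 5 tested genes lower. That count was 3 without Rank-knockout replicate 2 or 4, after thinning, with a replicate block and with no filter. In addition, 1 distal gene that had too few counts for the test was higher with no filter and without WT replicate 1, 3 or 4. Both lists hold absorptive genes of the villus, and their part in the values of the 8 genes was not tested.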

How the data were processed

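The authors sequenced 3′ mRNA libraries (Lexogen QuantSeq, forward) as single 50-base reads, trimmed them with BBDuk, removed reads from abundant sequences with bowtie2, aligned the rest to GRCm38 (mm10, also the build named in the submitters' processing notes) with STAR and counted them per Ensembl gene and strand with featureCounts. The deposited values are these raw counts for 8 libraries, 4 WT and 4 Rank-knockout, each from 1 mouse, so the p-values measure the spread between mice. Of 54532 genes 33764 had 0 counts throughout, and 54495 identifiers were found in GENCODE M21. Total counts ran from 1530781 to 4335653, and Nt5e and Pnp had the fewest counts of the 8 genes.

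Genes kept by filterByExpr were fitted with edgeR 4.0.16 (R 4.3.3), TMM scaling and the robust quasi-likelihood F-test of genotype alone, with Benjamini-Hochberg adjustment over all 9855 tested genes and a threshold of 0.05. The code was tested on simulated data. SEs come from the F statistic. CPM use TMM-scaled totals. Ratios took log2 CPM (prior count 2) and an exact two-sided permutation test over 70 assignments. Alternatives were RLE factors, plain totals, totals that left out the 50 most abundant genes, no filter or a mean of at least 5 CPM, DESeq2 1.42.0, limma-voom (limma 3.58.1), thinning, a replicate block and each library left out. The genes and lists were chosen with earlier results of these data known. Named genes are the 8, genes past the threshold or of short lists, and the 3 nearest genes of each.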

Additional observations from a re-analysis of the deposited data

Results flagged for a closer look

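In 18 sets of 4 libraries (the total counts and the CPM of the 8 genes, in each genotype) the farthest library was set against Dixon's limit for 4 values, which chance passes in about 0.9 of 18 sets. It was passed in 2, both by WT replicate 2. Its total count was 4335653, against 1530781 to 1616024 in the other WT libraries. Its Slc28a2 level was 95.3 CPM, against 394 to 447 CPM in the other WT libraries.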

How the results depend on the processing

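The count of the 8 genes called lower was 5 with library totals, 7 with DESeq2 and 6 with every other setting on all libraries, and leaving out each library gave 5 to 8. Library totals moved the median of all tested genes by 0.20 and totals that left out the 50 most abundant genes by 0.13, the share of calls that were lower went from 48.0% to 25.1% and 31.7%, and library totals called 2566 genes higher and 859 lower, against 1555 and 1438 with TMM. List medians moved with them, that of the nucleotide-hydrolysing enzymes and Dpp4 to -0.29. With library totals the mid villus genes had 7 lower calls in place of 11, the goblet cell genes 2 in place of 4 and the salvage genes 5 higher calls in place of 1. Paneth cell genes had 6 higher calls with library totals or DESeq2 and 2 with limma-voom or thinning, in place of 4. Leaving out each library gave 1020 to 1718 genes higher and 1097 to 1564 lower. The same replicate numbers did not pair the mice by their deviations (correlations of 0.05, 0.15, -0.14 and 0.32), and a replicate block called 1708 genes higher and 1602 lower and left 6 of the 8 genes called. Among list genes the block called Igha (-1.54, adjusted p = 0.00023), Junb (-0.57, adjusted p = 0.014) and Slc51a (-0.55, adjusted p = 0.027) lower, did not call Clca4b (-1.14, adjusted p = 0.061) and gave a lower villus median of -0.84. It also called Fabp1 (-0.61) lower and Nt5c (0.42), Ppat (0.92), Defa17 (1.22) and Defa24 (1.08) higher, and did not call Ang4 (1.13) and Mmp7 (1.21). Intracellular purine catabolism then had 4 higher genes in place of 3, and de novo synthesis 7 in place of 6. As log2 fold changes, Xdh was -0.44 with library totals and -0.77 to -0.52 with a library left out, Slc28a2 -1.48 with DESeq2 and -1.79 to -1.30, and Pnp 0.30 with limma-voom and -0.78 to 0.022, while the calls of Ada, Nt5e, Enpp3, Krt20 and Alpi held under every alternative. Ratios to the pan epithelial genes with a library left out ran from -1.65 to -1.01 for Ada, -1.68 to -0.92 for Slc28a2, -0.53 to 0.34 for Pnp (-0.53 without WT replicate 2 and -0.0086 without Rank-knockout replicate 3), -0.59 to -0.39 for Xdh, -1.54 to -1.11 for Enpp3 and -1.12 to -0.76 for Alpi. With mid villus genes as the reference the ratios of Xdh, Enpp3, Krt20 and Alpi were 0.26, -0.59, -0.018 and -0.21, and with Vil1 0.13, -0.73, -0.16 and -0.35, and none passed. The mean log2 level of the reference genes gave -1.32 for Ada, past the threshold. Sign flips of same-numbered libraries, the replicate block for ratios, cannot go below p = 0.125 (exact), at the unmoved differences of -0.48, -1.33, -0.76 and -0.95 for Xdh, Enpp3, Krt20 and Alpi. The cause of these changes was not tested. Nt5e and Pnp rest on the fewest counts of the 8 genes, and thinning to the shallowest library gave -1.85 and -0.37.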
